A study of Mus musculus with 3 samples.

Results

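Endogenous opioid peptides are cut from 4 precursor proteins and act on 4 receptors, and their genes were examined here in sorted cells of the mouse leptomeninges. The 10 genes were the precursors Penk, Pdyn, Pomc and Pnoc, the receptors Oprm1, Oprd1, Oprk1 and Oprl1, and the prohormone convertases Pcsk1 and Pcsk2. They were found by symbol among the 46983 genes of a raw count table, and all 10 had a row. The family was chosen by its members' names, with their counts and CPM in these same libraries already known, so the levels are given as a description and none of them was tested.

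The study set out to profile leptomeningeal fibroblasts, the collagen-producing cells of the thin membranes that lie on the brain. Tissue from vehicle-treated mice was microdissected, dissociated and sorted by flow cytometry into a fraction enriched for pia, the innermost membrane, and RNA was sequenced in bulk. There were 3 libraries of this 1 group, so no treatment could be compared. The vehicle, its purpose, the strain, the genotype, the sex and the age of the mice, and the marker used for sorting, were not given in the labels. The labels also did not say whether the libraries came from separate animals, so spreads and p-values measure only the differences between these samples, which may be technical.

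In the opioid system a precursor enters the secretory pathway, and the convertases encoded by Pcsk1 and Pcsk2 cut it at pairs of basic residues. Carboxypeptidases then trim the ends, and the released peptides bind receptors that couple to inhibitory G proteins. Penk gives Met- and Leu-enkephalin, Pdyn gives dynorphins, Pomc gives beta-endorphin together with ACTH and melanocortins, and Pnoc gives nociceptin. Oprm1, Oprd1 and Oprk1 encode the mu, delta and kappa receptors, and Oprl1 the nociceptin receptor. Outside neurons and endocrine cells, Penk is known from several kinds of mesenchymal cell.

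The coding sequences of the precursors are shown first, because the number of peptides that a transcript can yield differs between them. They were read from the GENCODE M21 transcripts on GRCm38, 1 coding sequence per gene, and searched in frame for the codons of the Met-enkephalin, Leu-enkephalin and nociceptin cores. Capitals mark the core codons, and the lower-case letters are the 2 codons on each side, where the convertases cut if both are basic.
Penk copy 1 (chr4:4134328-4134354, minus strand): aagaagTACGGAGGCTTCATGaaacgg
Penk copy 2 (chr4:4134307-4134333, minus strand): aaacggTACGGAGGCTTCATGaagaag
Penk copy 3 (chr4:4134220-4134246, minus strand): aagaggTATGGCGGCTTCATGaagaag
Penk copy 4 (chr4:4134067-4134093, minus strand): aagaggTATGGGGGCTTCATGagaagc
Penk copy 5 (chr4:4133995-4134021, minus strand): aagcgcTACGGGGGCTTCATGagaagg
Penk copy 6 (chr4:4133935-4133961, minus strand): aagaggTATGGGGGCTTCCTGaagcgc
Penk copy 7 (chr4:4133842-4133868, minus strand): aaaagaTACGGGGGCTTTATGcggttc
Pdyn copy 1 (chr2:129688232-129688258, minus strand): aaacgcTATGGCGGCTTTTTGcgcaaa
Pdyn copy 2 (chr2:129688124-129688150, minus strand): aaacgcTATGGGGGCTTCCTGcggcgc
Pdyn copy 3 (chr2:129688067-129688093, minus strand): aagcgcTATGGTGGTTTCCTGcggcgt
Pomc copy 1 (chr12:3960367-3960393, plus strand): aagcgtTACGGTGGCTTCATGacctcc
Pnoc copy 1 (chr14:65404875-65404898, minus strand): aaaaggTTTGGGGGCTTCaccggg

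Penk held 7 opioid cores in 804 coding bases, of which 6 were Met-enkephalin and 1, the sixth copy, was Leu-enkephalin. All 7 followed a pair of basic codons, and 5 were also followed by one. The exceptions were copies 4 and 7, which are known to be released with extra residues at their end, and copies 1 and 2 shared the basic pair between them. Pdyn held 3 Leu-enkephalin cores in 744 bases, each between basic pairs. Pomc held 1 Met-enkephalin core in 705 bases and Pnoc 1 nociceptin core in 636 bases, both after a basic pair but not before one. Over 21468 mouse coding sequences, the Met-enkephalin codons were found in frame in 2 (0.00932%), which were Penk and Pomc. The Leu-enkephalin codons were found in 9 (0.0419%) and the shorter nociceptin core in 106 (0.494%).

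Libraries 1, 2 and 3 held 21002860, 28704952 and 25338616 gene counts. Values are counts per 1000000 (CPM) of library sizes scaled by TMM, and a library with a count of 0 allows up to 3 counts, which is 0.152, 0.101 and 0.116 CPM. All 7 markers of fibroblasts and 9 of 10 markers of leptomeningeal fibroblasts were at 1 CPM or more in every library. Library 1 stood apart: transcripts of low GC content were low in it, and so were most macrophage, B-cell and choroid plexus markers. Mean CPM of Penk, Pomc, Oprl1, Pcsk1 and Pcsk2 is therefore also given without it.

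Penk was the only opioid precursor with an abundant transcript. Its gene (ENSMUSG00000045573.9, chromosome 4, 4133531 to 4138819, minus strand) had 12556, 26014 and 25128 counts, or 636, 877 and 972 CPM in libraries 1, 2 and 3. Library 1 was the lowest, and the spread was 1.53-fold from lowest to highest. The mean was 828 ± 173 CPM (SD, n = 3), and 951 CPM without library 1, with the scaling refitted, as for all values without a library. By mean CPM Penk ranked 147 among the 25083 genes with any count, and by CPM per kilobase of exon, at 507 ± 106, it ranked 72. On that scale 4 of 7 fibroblast markers lay above it, led by Col1a2 at 928 ± 75.5, whereas 0 of 10 leptomeningeal fibroblast markers did. The first of the latter, the transporter gene Slc47a1, was at 310 ± 58.6 CPM per kilobase. In sorted cells measured in bulk, fewer cells of a type and less RNA per cell cannot be told apart, so these levels do not say which cells held the transcript. Neurons are a well known source of Penk. The 10 neuron markers summed to between 76.0 and 89.1 CPM, and 5 of them were at 1 CPM or more in every library. Snap25, for a protein of synaptic vesicle fusion, made up most of the sum, at 42.7, 67.4 and 58.8 CPM, lowest in library 1 like Penk. Several other neuron markers did not follow that order. Tubb3, for a neuronal tubulin, was at 13.6, 11.8 and 14.8 CPM (13.4 ± 1.52), lowest in library 2. Syt1, for a synaptic vesicle protein, was at 7.65, 6.44 and 6.26 CPM (6.78 ± 0.755), highest in library 1. Rbfox3, Slc17a7 and Stmn2 were likewise highest in library 1, and Elavl4 was nearly level in libraries 1 and 3, at 1.62 and 1.59 CPM. Of the 10, 3 (Tubb3, Gad1 and Slc32a1) were highest in library 3, like Penk. Of the genes for GABA synthesis, Gad2 was at 0 in all 3 libraries and Gad1 at 0.394 ± 0.480 CPM. The part of neurons in the level of Penk was not tested.

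Pomc (ENSMUSG00000020660.5, chromosome 12, 3954951 to 3960642) had 60, 55 and 48 counts, which is 3.04, 1.85 and 1.86 CPM (2.25 ± 0.684, SD, n = 3, and 1.91 without library 1). Library 1 was the highest, opposite to Penk, but its exact 95% Poisson interval of 2.32 to 3.91 CPM met that of library 2 (1.40 to 2.41). These intervals, and the limits given for a count of 0, cover counting error only, since PCR copies of 1 molecule were counted as separate reads. Per kilobase, Penk lay 169-fold, 382-fold and 422-fold above Pomc in libraries 1, 2 and 3. The anterior pituitary is the classical source of Pomc, and of 9 pituitary endocrine markers 0 reached 1 CPM in every library. Prl, Fshb and Pax7 were at 0, and the 9 summed to between 0.405 and 1.42 CPM. The part of pituitary cells in the level of Pomc was not tested.

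Pnoc (ENSMUSG00000045731.5, chromosome 14, 65400673 to 65425472) was close to the limit of detection. It had 8, 8 and 5 counts, or 0.405, 0.270 and 0.193 CPM, and the Poisson intervals of the 3 libraries overlapped. Pdyn (ENSMUSG00000027400.11, chromosome 2, 129686565 to 129699844) had no count in any library. With 3 counts taken as the upper limit per library, Penk was at least 7395-fold higher than Pdyn per kilobase. Penk made up 99.5%, 99.8% and 99.8% of the counts of the 4 precursors in libraries 1, 2 and 3, with an exact binomial 95% interval of 99.3% to 99.6% in library 1. It made up 99.1% ± 0.190 (SD, n = 3) of the counts of all 10 genes.

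**Figure D1:**
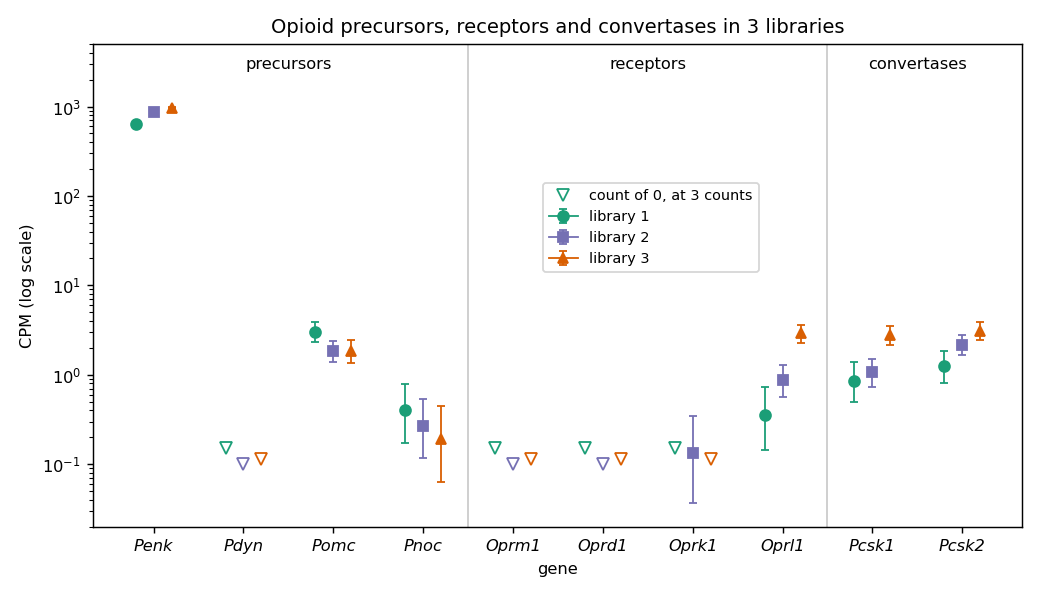
Level of each gene in each library, in CPM on a log axis, with exact 95% Poisson intervals as bars and open triangles at the level of 3 counts where the count was 0. Penk lies between 636 and 972 CPM, and every other gene is at 3.09 CPM or less.

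Of the 10 genes, 7 had a count in some library, against 53.4% of all genes in the table. At 1 CPM or more in every library there were 3 (Penk, Pomc and Pcsk2), against 27.3% of all genes. Without library 1 there were 4, since Pcsk1 fell short of 1 CPM only in that library. The median log2(CPM + 1) of the 10 was 0.66 ± 0.21 (SD, n = 3), against 0 over all 46983 genes and 1.61 ± 0.12 over the 25083 genes with any count. The 14409 genes that passed the filter on low counts had a median of 4.19 ± 0.12, but of the 10 only Penk, Pomc, Pcsk1 and Pcsk2 passed it.

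Penk was also set beside 30 precursors of other neuropeptides and peptide hormones, compared per kilobase because gene lengths differ. None of the 30 lay above it. The first was Adm, which encodes the vasodilator adrenomedullin, at 49.7 ± 24.4 CPM per kilobase, and Penk exceeded it between 5.04-fold and 19.3-fold in the 3 libraries. Next were Nppc, the precursor of C-type natriuretic peptide, at 42.2 ± 12.2 and Nucb2, the precursor of nesfatin, at 21.2 ± 5.69 CPM per kilobase. Of the 30, 10 were at 1 CPM or more in every library and 4 (Crh, Ucn, Ghrh and Pmch) had no count. Their median log2(CPM + 1) was 0.37 ± 0.13. Pomc and Pnoc, at 1.71 ± 0.519 and 0.134 ± 0.0498 CPM per kilobase, fell among these genes, as the plot of precursor levels shows.

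**Figure D2:**
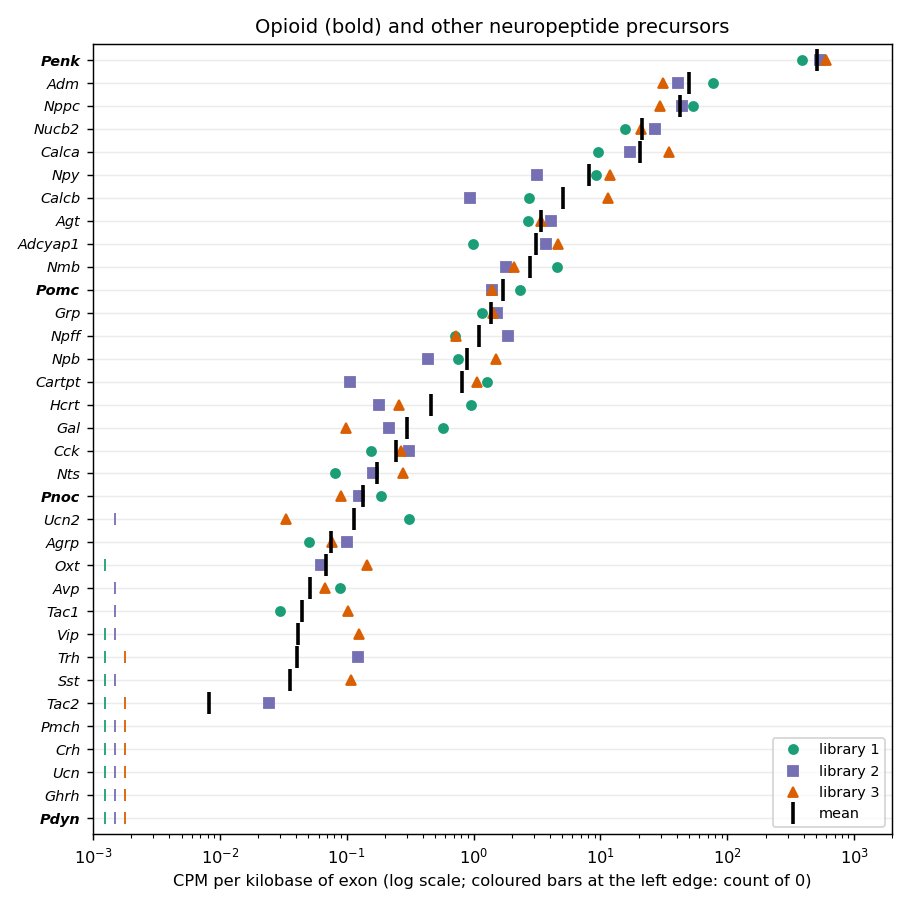
Level of the 4 opioid precursors (bold) and 30 other neuropeptide precursors in CPM per kilobase of exon on a log axis, with 1 symbol per library, black bars for the mean, and coloured bars at the left edge for counts of 0. Penk, at 507 CPM per kilobase, lies above Adm at 49.7, and Pdyn is among the genes with no count.

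The main receptors for the peptides of Penk were not detected at this depth. Oprm1 (ENSMUSG00000000766.18, chromosome 10, 6758506 to 7038198), the mu receptor, and Oprd1 (ENSMUSG00000050511.1, chromosome 4, 132110726 to 132144486), the delta receptor, had a count of 0 in all 3 libraries. This depth allows each of them up to 0.152 CPM in library 1, 0.101 in library 2 and 0.116 in library 3. Oprk1 (ENSMUSG00000025905.13, chromosome 1, 5588466 to 5606131), the kappa receptor, had 4 counts in library 2 and 0 in the others. Its 0.135 CPM in library 2 had a Poisson interval of 0.0367 to 0.345 CPM, which includes the limits of the other libraries.

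Oprl1 (ENSMUSG00000027584.16, chromosome 2, 181715016 to 181720985), the nociceptin receptor, was the only opioid receptor gene with counts in every library. It had 7, 26 and 75 counts, or 0.355, 0.876 and 2.90 CPM in libraries 1, 2 and 3. Library 3 was 8.18-fold above library 1, and its Poisson interval (2.28 to 3.64 CPM) met neither that of library 2 (0.572 to 1.28) nor that of library 1 (0.143 to 0.731). The mean was 1.38 ± 1.34 CPM (SD, n = 3), 1.94 CPM without library 1 and 0.609 CPM without library 3. Oprl1 did not pass the filter, and in the fit of all 25083 genes with any count its adjusted p for variation between libraries was 0.8695 (edgeR goodness of fit, Benjamini-Hochberg). Its ligand gene Pnoc was highest in library 1 by CPM, where Oprl1 was lowest, although the counts of Pnoc did not resolve an order.

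Other proteins that bind opioid peptides or carry the name were present. Ackr3, an atypical chemokine receptor that also takes up opioid peptides, was at 40.9, 38.2 and 31.4 CPM (a mean of 36.8 ± 4.93 CPM). Ogfr, the nuclear opioid growth factor receptor for Met-enkephalin, was at 66.9, 45.1 and 52.7 CPM (21.3 ± 4.29 CPM per kilobase). Ogfrl1, named for its likeness to Ogfr, was at 0.348 ± 0.109 CPM per kilobase. Of these genes and Opcml, 4 in all, 3 were at 1 CPM or more in every library, with a median log2(CPM + 1) of 3.57 ± 0.17.

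Of 14 genes for proteins that opioid receptors signal through, 10 were at 1 CPM or more in every library. The inhibitory G protein subunits led: Gnai2 was at 32.2 ± 7.35 and Gnai3 at 30.5 ± 18.4 CPM per kilobase, followed by the receptor kinase Grk2 at 4.63 ± 1.34. Gnai3 had 32.8 CPM in library 1, against 116 and 150 CPM in libraries 2 and 3, but its adjusted p was 0.2142 (edgeR goodness of fit). The potassium channel genes Kcnj3, Kcnj5, Kcnj6 and Kcnj9, whose channels opioid receptors open in neurons, each had a mean of 0.603 CPM or less. The list had a median log2(CPM + 1) of 3.09 ± 0.23.

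Both convertases were detected in every library at a low level. Pcsk1 (ENSMUSG00000021587.4, chromosome 13, 75089826 to 75134861) had 17, 32 and 72 counts, or 0.861, 1.08 and 2.78 CPM (1.57 ± 1.05, SD, n = 3, 1.99 without library 1 and 0.958 without library 3). Library 3 was 3.23-fold above library 1, and its Poisson interval of 2.18 to 3.51 CPM lay above those of the others. Pcsk2 (ENSMUSG00000027419.9, chromosome 2, 143546156 to 143816285) had 25, 64 and 80 counts, or 1.27, 2.16 and 3.09 CPM (2.17 ± 0.914, SD, n = 3, and 2.70 without library 1). The intervals of libraries 2 and 3 overlapped, and those of libraries 1 and 3 did not. Neither spread was called, and both genes had an adjusted p of 0.9997 (edgeR goodness of fit). Per kilobase, Penk lay between 1197-fold and 2788-fold above Pcsk1 and between 1521-fold and 2431-fold above Pcsk2.

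The 7 other members of the convertase family, which act in the constitutive secretory pathway or elsewhere, were compared with them. The first was Mbtps1, the site-1 protease of the Golgi, at 440, 477 and 369 CPM (40.7 ± 5.17 CPM per kilobase). Pcsk7 and Furin, which cut proproteins in most cells, were at 10.2 ± 1.23 and 3.76 ± 1.15 CPM per kilobase. Pcsk1 and Pcsk2, at 0.281 ± 0.188 and 0.275 ± 0.115 CPM per kilobase, lay below Mbtps1, Pcsk7, Furin, Pcsk6 and Pcsk5 in all 3 libraries. Of the 7 other convertases, 5 were at 1 CPM or more in every library, and the list median of log2(CPM + 1) was 4.61 ± 0.28.

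Genes of dense core granules, the organelles in which Pcsk1 and Pcsk2 work, were uneven. Chgb, which encodes the granule protein chromogranin B, was at 151, 219 and 256 CPM (76.2 ± 19.4 CPM per kilobase). Library 1 was the lowest for it, as for Penk. Cpe, the carboxypeptidase that trims enkephalin intermediates, was at 47.2, 115 and 130 CPM (37.4 ± 16.9 CPM per kilobase), and Scg2, for secretogranin II, was at 12.5 ± 2.89 CPM per kilobase. Scg5, the chaperone of the Pcsk2 product, was at 2.40 ± 0.429 CPM per kilobase, above Pcsk2 itself. Pcsk1n, whose product inhibits that of Pcsk1, had 11, 11 and 16 counts, and Vgf had a mean of 0.142 CPM. Of these 11 genes, 9 were at 1 CPM or more in every library, with a median log2(CPM + 1) of 4.55 ± 0.44.

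The peptidases that can degrade opioid peptides were all detected. Of 13 such genes, 12 were at 1 CPM or more in every library, and the list median of log2(CPM + 1) was 4.98 ± 0.26. The first 3 per kilobase were Ece1, the endothelin-converting enzyme, at 41.1 ± 3.25, Enpep, for aminopeptidase A, at 19.4 ± 3.99, and Anpep, for aminopeptidase N, at 16.0 ± 7.46. Anpep was highest in library 1, at 101 CPM, against 43.2 and 54.3 CPM in libraries 2 and 3. Mme, for neprilysin, long called enkephalinase, was lower, at 10.7, 35.4 and 17.2 CPM (1.83 ± 1.11 CPM per kilobase). Dpp3, for an enkephalin-degrading dipeptidyl peptidase, was at 74.2, 73.4 and 82.4 CPM.

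**Figure D3:**
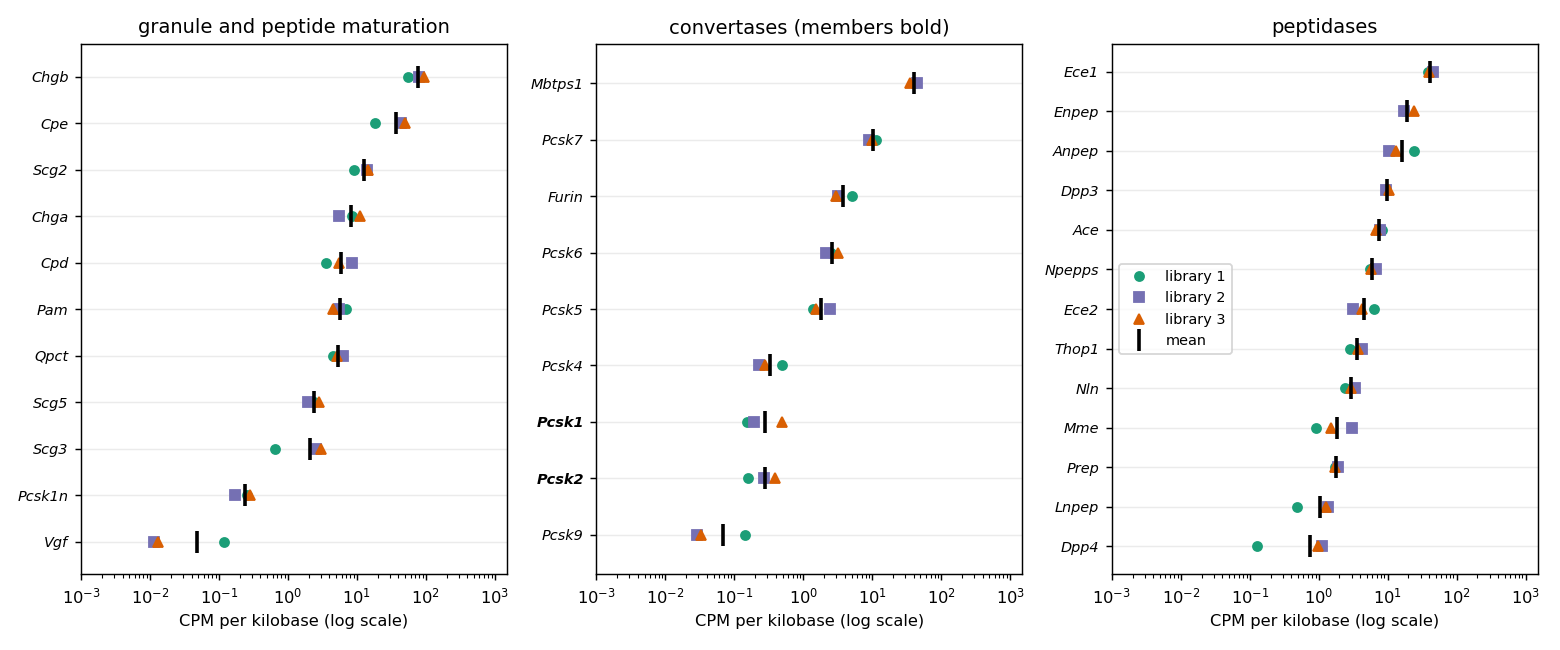
Levels of granule and peptide maturation genes, of convertases with Pcsk1 and Pcsk2 in bold, and of peptidases, in CPM per kilobase of exon on a log axis, with 1 symbol per library and black bars for the mean. Chgb at 76.2 and Cpe at 37.4 lead the first panel, and Pcsk1 and Pcsk2 lie below 0.5 CPM per kilobase in every library.

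The enhancer of Penk is known to bind CREB and AP-1 proteins, and all 10 genes listed for such factors were at 1 CPM or more in every library. Fos, Junb and Atf3 led at 1174 ± 312, 196 ± 54.7 and 47.5 ± 9.89 CPM per kilobase. These are levels in dissociated and sorted cells, and the part of that handling in them was not tested. Fos was highest in library 1, at 3607 CPM, where Penk was lowest, against 2318 and 2358 CPM in libraries 2 and 3. Creb1 was at 19.9, 52.6 and 44.7 CPM. The list had a median log2(CPM + 1) of 6.37 ± 0.12.

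Promoters were taken from the RefSeq table for GRCm38.p6, as 250 bases before to 50 after each start site. It gave promoters for Pdyn, Pomc, Oprm1, Oprd1, Oprl1, Pcsk1 and Pcsk2, and none for Penk, Pnoc and Oprk1. The cyclic AMP response element TGACGTCA, which reads the same on both strands, was found in that of Pcsk1, 78 bases before the start site, and in no other. The AP-1 element TGACTCA and the element TGCGTCA, known from the Penk enhancer, were searched on both strands and were found in none of them. Among all 32851 promoters of the table, 1.79% held the first, 5.2% the second and 2.12% the last. The match is shown with 12 bases on each side and with the element in capitals, because Pcsk1 is a known CREB target.
Pcsk1 element: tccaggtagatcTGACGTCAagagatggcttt

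Variation between libraries was tested with edgeR's goodness-of-fit test on all 14409 filtered genes. None of the 4 opioid genes that passed the filter was called at an adjusted p of 0.05, against 0.437% of all genes tested. Their unadjusted p was 0.6113 for Penk, 0.6839 for Pomc, 0.1658 for Pcsk1 and 0.4298 for Pcsk2, so that 0 of 4 lay below 0.05, against 7.04% of all genes. In the fit with no filter, 0 of the 7 opioid genes with a count were called, against 0.554% of 25083 genes, and with the dispersions of DESeq2 0 of 4 were called. A p above the threshold does not show that the libraries had the same level.

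The order of the libraries was not the same for all of the genes. Penk, Oprl1, Pcsk1 and Pcsk2 were lowest in library 1 and highest in library 3, whereas Pomc and Pnoc were highest in library 1. Across all genes with any count, 45.2% were lowest in library 1 and 29.9% highest in library 3. Ties for the lowest value that included library 1 were counted as library 1, which raises the first share. Counted in this way, 5 of the 7 opioid genes with a count were lowest in library 1, with Oprk1 there by a tie. Of the 7, 4 were highest in library 3. The share of all genes with both traits was not computed. Summed markers of several other cell types were also lowest in library 1 and highest in library 3, or highest in library 3 alone. The 9 macrophage and microglia markers summed to 824, 864 and 1292 CPM, and without Tmem119, left out after its values were seen, to 12.2, 267 and 746 CPM. Of the 9, 7 were called variable (C1qa, C1qb, C1qc, Csf1r, Lyz2, Ctss and Laptm5), 7 were at 1 CPM or more in every library and none was at 0. The 8 lymphocyte markers summed to 2.79, 54.1 and 62.8 CPM, with Cd79a and Cd79b called and 1 of 8 at 1 CPM or more in every library. The 7 choroid plexus markers summed to 185, 3292 and 4978 CPM, with Ttr, Enpp2 and Kl called. Ttr and Enpp2 made up most of that sum in libraries 2 and 3. Of the 7, 6 were lowest in library 1, whereas Aqp1 was highest there, at 73.5, 57.1 and 60.8 CPM. The 7 arachnoid barrier markers summed to 272, 360 and 421 CPM, a 1.55-fold spread beside the 1.53-fold of Penk. Most of that sum was Abcg2, for an efflux transporter, at 177, 280 and 340 CPM, and 0 of the 7 were called. The markers of this list did not share 1 order, and 3 of the 7 were highest in library 3. Krt19, at 38.6, 19.8 and 13.6 CPM, and Klf5 fell from library 1 to library 3, and Cldn11 was highest in library 1. All 7 mural markers and all 8 markers of oligodendrocytes and Schwann cells were highest in library 3, like Oprl1 and Pcsk1, and 0 of either were called. Mural markers summed to 2528, 2255 and 4428 CPM, and those of oligodendrocytes and Schwann cells to 3330, 2934 and 4982 CPM. Astrocyte markers summed to 1888, 2076 and 1198 CPM, lowest in library 3. Most of that sum was Gja1, at 1146, 1468 and 680 CPM, and Gjb6, at 680, 561 and 420 CPM. The other 5 of the 7 were far lower and were highest in library 3, so the sum does not stand for them. Endothelial markers summed to 93.5, 71.6 and 83.1 CPM. The part of these cells in the levels of Oprl1, Pcsk1, Pcsk2 and Penk was not tested. Fibroblast markers summed to 23669, 29335 and 25518 CPM and leptomeningeal fibroblast markers to 1673, 1706 and 1747 CPM, a spread of 1.24-fold and 1.04-fold. The second sum joined opposite orders, with Slc47a1 at 846, 1242.5 and 1057 CPM and Ptgds at 649, 240 and 519 CPM. Of the 7 fibroblast markers 5 were lowest in library 1, like Penk, and so were 5 of the 10 leptomeningeal fibroblast markers. The part of these fibroblasts in the level of Penk was not tested.

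**Figure D4:**
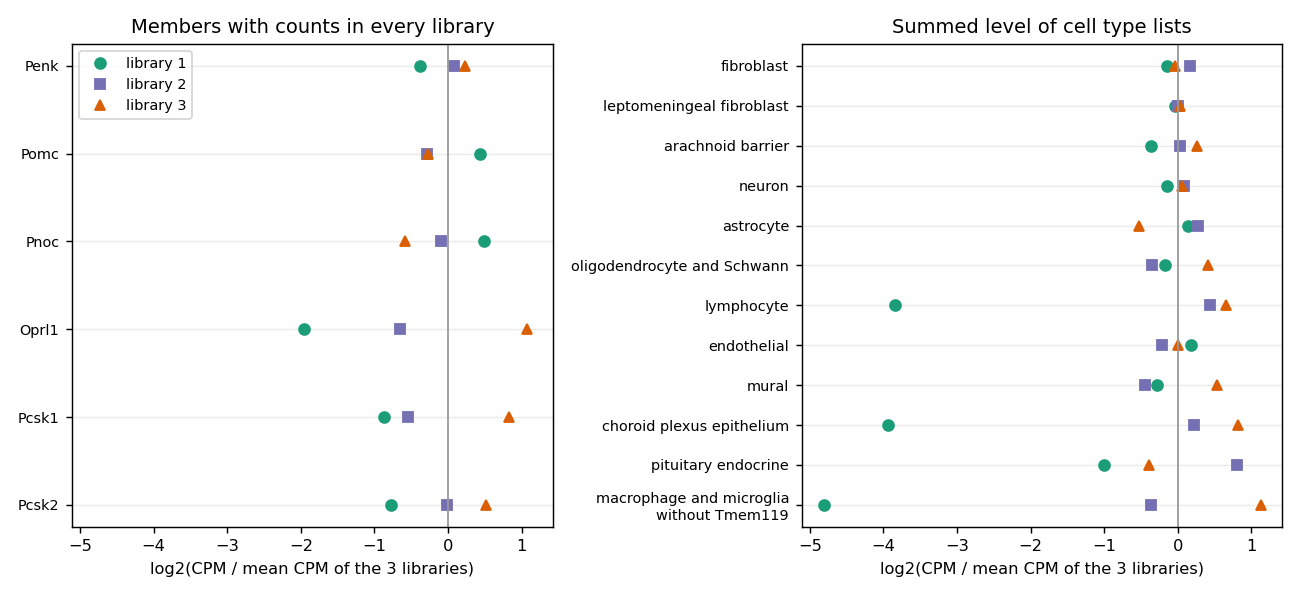
Level in each library relative to the mean of the 3, as log2 of the CPM ratio, for the 6 opioid genes with counts in every library (left) and for the summed CPM of 12 cell type marker lists (right), with 1 symbol per library. Macrophage and microglia markers are shown without Tmem119. Library 1 is lowest for Penk, Oprl1, Pcsk1 and Pcsk2, and it is highest for Pomc and Pnoc. It is also lowest for macrophage, lymphocyte and choroid plexus markers. By less, it is lowest for fibroblast, leptomeningeal fibroblast, arachnoid barrier, neuron and pituitary markers.

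Base composition was set beside these differences, since library 1 was low in transcripts of low GC content. Pcsk1, at 40.6% GC, had a log2(CPM + 1) in library 1 at -0.59 relative to the mean of the others, within the quartiles of its group of filtered genes, 1 of 10 equal groups by GC content (-1.62 to -0.56). Pcsk2, at 46.9% GC, was at -0.67, below the lower quartile of -0.56. Penk, at 52.7% GC, was at -0.54, where its group had a median of 0.24 and a lower quartile of -0.07. With the trends with GC content and length removed, Penk was at 542, 1004 and 995 CPM and Pcsk1 at 1.35, 0.802 and 2.39 CPM, so that library 1 was no longer the lowest for Pcsk1. Pomc was then at 2.37, 2.31 and 1.91 CPM. For Oprl1 the values were 0.345, 0.897 and 2.92 CPM, in the same order as before.

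**Figure D5:**
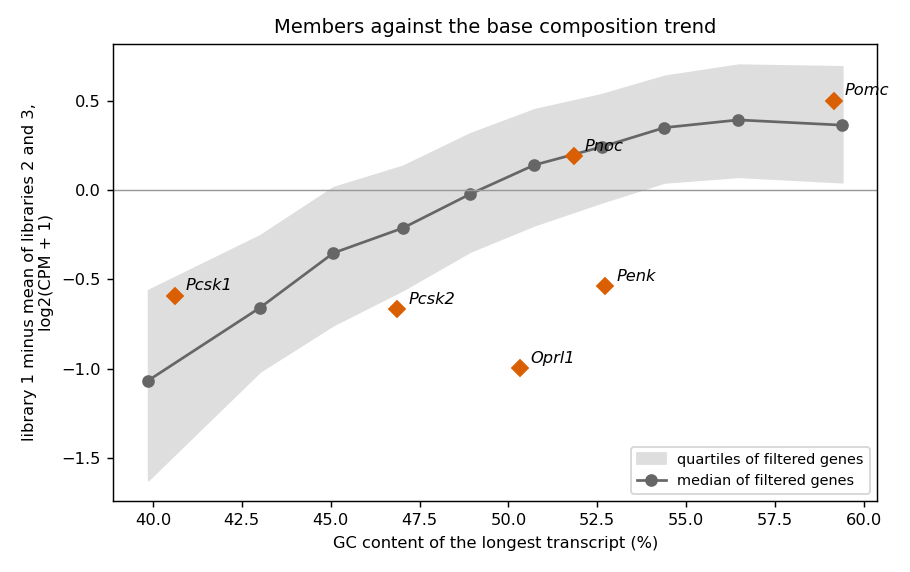
Difference in log2(CPM + 1) between library 1 and the mean of libraries 2 and 3 (y axis) against GC content in percent (x axis), with the median and quartiles of 10 equal groups of the filtered genes in grey and 6 opioid genes as diamonds. Penk at -0.54 lies under the grey band, and Pcsk1 at -0.59 lies inside it.

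Per kilobase the order of levels was Penk, Pomc, Oprl1, Pcsk1, Pcsk2, Pnoc and Oprk1, followed by Pdyn, Oprd1 and Oprm1 at 0. The libraries of Penk and Pomc did not overlap, nor did those of Pomc and Oprl1 or those of Pnoc and Oprk1. Oprl1 (0.367 ± 0.358), Pcsk1, Pcsk2 and Pnoc overlapped from each to the next, so their order among themselves was not resolved. It also turned on the length used: with the longest annotated transcript of each gene Pcsk2 came next after Pomc, at 0.460 CPM per kilobase, ahead of Oprl1 at 0.444 and Pcsk1 at 0.312.

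Genes with a pattern like that of Penk were sought among the 9031 others with a mean of 10 CPM or more, by the Euclidean distance between centred log2(CPM + 1) values over the 3 libraries. The nearest were Ywhab (distance 0.001613), Trmt1l, Eprs, Ppap2a and Mon1b, the last at 0.01192. Ywhab was at 56.8, 78.8 and 87.4 CPM. With 3 libraries such likeness is common: 157 genes (1.74%) lay within a distance of 0.1.

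Penk and Pcsk2 overlap genes on the other strand, and it is not known whether the counting used strand. Penk shares 233 exon bases with A830012C17Rik, which had 168, 191 and 110 counts, or 1.34%, 0.734% and 0.438% of those of Penk. Pcsk2 shares 260 bases with Pcsk2os1, which had 16, 1 and 0 counts. If the counting did not use strand, reads from the shared bases would be left out for both genes. The 25 counts of Pcsk2 in library 1 are uncertain for that reason, and could be too low. Oprm1 shares 96 bases with Ipcef1, which had 0, 0 and 6 counts.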

How the data were processed

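RNA of 3 pia-enriched samples from vehicle-treated mice was sequenced; per the labels' protocols 2 ng of RNA with an integrity number of 9.7 to 10 was amplified over 12 cycles, and libraries were made from 10 ng of cDNA with 8 cycles and read as 50 bp pairs. The authors deposited a table of counts per gene. The labels call it normalized, but all its values are whole, its totals differ, and DESeq2 size factors computed from it were 0.7937, 1.215 and 1.062, so it was used as raw counts. HTSeq 0.5.3, DESeq2 1.22.1 and the build mm10 are named in the submitters' processing notes, without their role. The aligner, annotation release and strand setting are not given in the sources used here. The 5 counter rows that name no gene (45.6%, 39.1% and 39.6% of the table's reads in libraries 1, 2 and 3) were left out. Of 46983 gene identifiers, 46488 (98.9%) were found in GENCODE M21 on GRCm38, which gave coordinates, exon lengths and GC content (of the longest transcript). Each column belonged to a sample. Gene totals ranged from 21002860 to 28704952 counts.

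Library sizes were scaled by TMM (edgeR 4.0.16, R 4.3.3) over genes passing filterByExpr at a minimum count of 10. With 1 group the quasi-likelihood test has no contrast, so the fit of 1 mean per gene was tested instead (edgeR's gof, trended dispersion), with Benjamini-Hochberg adjustment over all genes tested and a threshold of 0.05, and it was tested on simulated data. The scaling and the dispersion estimate were revised after calls from 2 earlier versions of the fit had been seen, to follow an earlier analysis of these data. CPM per kilobase uses the union of exons. The alternatives were DESeq2 1.42.0 size factors and dispersions, plain totals, other filters, a common dispersion, loess removal of GC content and length trends, other transcript lengths and leaving out each library.

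The family, the 8 lists of related genes (119 genes) and the 12 cell type lists (96 genes) were chosen with earlier results of these data known, and Dpp4 stood on 2 lists; 1 further gene is not reported here. Named are the 10 genes, the first 3 per kilobase of each of the 8 lists and any of their genes called variable (0 were); cell type markers and others were chosen for their role or after their values were seen. Dpp3, Grk2 and Grk3 carry other symbols in the table and were matched by identifier.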

Additional observations from a re-analysis of the deposited data

Results flagged for a closer look

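Reads assigned to no gene made up 41.43% of the table on average over the 3 libraries, and were outside the measurements used above. Most were not uniquely aligned (16.53%), not aligned (14.66%) or in no annotated feature (8.889%), so they do not measure a level of any gene. A small part were reads shared by genes (1.354%). Into that class would fall reads from bases that Penk and Pcsk2 share with opposite-strand genes, if the counting did not use strand.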

How the results depend on the processing

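None of the opioid genes was called variable between libraries under any of the 12 alternatives. Under 7 alternatives the number at 1 CPM or more in every library was 3, except without library 1, where it was 4. For the 6 genes with counts in every library, 4 other scalings moved mean CPM by at most 1.04-fold. Leaving out a library moved it by up to 2.26-fold (Oprl1, 0.609 CPM without library 3). Penk's share of precursor counts (99.7%) was 99.6% per kilobase and 99.7% with the trends of GC content removed, and it ranged from 99.6% to 99.8% with one library left out. The count of variable genes over the whole table (63) was 101 with the trends of GC content and length removed, of which the cause was not tested, and 139 with no filter on low counts, where more genes were tested. It was 60 in the fit as first run (TMM over all genes, another edgeR estimate of the dispersion trend) and 61 in the next (that trend alone), both added as alternatives after seeing the data. Across the fits that left out one replicate it ranged from 13 to 29, with fewer samples. With the mean transcript length, Penk was at 763 CPM per kilobase, Pcsk1 (0.682) and Oprl1 (0.681) changed places, and Pcsk2 was at 0.517. With the longest transcript Pcsk2 was at 0.460. Without library 3 the mean of Pcsk1 was 0.958 CPM, against 1.57 with it. The list of 5 genes nearest to Penk shared 3 with that at a pseudocount of 0.1. Depth limited the genes under 100 counts, and a count of 0 allowed up to 0.152 CPM. No paired analysis was possible because all libraries belong to the same group.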

Other observations

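Of 30 genes for receptors of other neuropeptides and their accessory proteins, 11 were at 1 CPM or more in every library, and 5 (Npy2r, Cckar, Tacr2, Npffr1 and Npffr2) had no count. Ramp2, which makes the adrenomedullin receptor together with Calcrl, was at 133, 111 and 134 CPM (38.2 ± 3.93 CPM per kilobase, SD, n = 3). Npy1r, a receptor for neuropeptide Y, was at 109, 124 and 97.8 CPM (31.9 ± 3.80 CPM per kilobase). Calcrl was at 23.4, 68.0 and 66.8 CPM, lowest in library 1 (edgeR goodness of fit, adjusted p = 0.6885). The list had a median log2(CPM + 1) of 0.53 ± 0.02, and 0 of its 13 genes past the filter were called variable, with 1 at an unadjusted p under 0.05.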
